A study of Gallus gallus with 12 samples.

Results

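Among 18241 numbered genes measured in the hen's oviduct (Gallus gallus, the commercial Lohmann layer strain), 168 met cutoffs for loss in magnum and uterus. All averaged at least 100 at 120 days of age and were at least 6-fold lower at 300 days in both segments. They were chosen by the measured levels themselves. A gene had to average at least 100 in the 120-day libraries of each segment, that average had to be at least 6 times the 300-day average plus 1, and all 3 libraries at 120 days had to lie above all 3 at 300 days. Of the 10769 numbered genes that reached an average of 100 in both 120-day groups, 325 met these cutoffs in the magnum and 245 in the uterus. The 168 shared genes are 51.7% of the magnum losses and 68.6% of the uterus losses. The same cutoffs turned round gave 13 genes gained with age in both segments, out of 9923 that averaged at least 100 in both 300-day groups. Among the 1579 loci that carry a new-gene label, which the rule left out, 1 met the cutoffs for loss.

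The 4 groups are the uterus at 300 days, the uterus at 120 days, the magnum at 300 days and the magnum at 120 days, with 3 libraries each and 12 in all. The series title places the hens before and during lay, and the study's question was the function of each segment and the defense of oviduct and egg. The labels give no treatment and no genotype beyond the strain. Whether the libraries of a group stem from separate birds is not stated, so the p-values cover the spread among these libraries only, and part of it may be technical.

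The magnum is the segment of the hen's oviduct whose tubular glands secrete egg white. The shell gland, labelled uterus, is where the eggshell is laid down. Before the onset of lay the oviduct is a small organ that grows quickly under rising ovarian steroids, through cell division and the building of its connective tissue. In the laying hen it is a fully differentiated secretory organ. The tables name genes by numbered identifiers that matched no entry of the chicken reference table (0 of 19820), so the genes are described here by level, length and pattern, the roles of single genes are not given, and markers of magnum or uterus cells could not be checked. In bulk tissue, fewer cells of a type and less RNA per cell cannot be told apart.

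Levels are given as scaled counts, that is read counts which had been brought to a common level before deposit, so that a typical gene has about the same value in every library. Over the 10769 genes above, the median lay between 693 and 742 in the 12 libraries. The column totals, which are not sequencing depth, were 16376839 to 17274374 in the uterus at 300 days, 14543795 to 15468376 in the uterus at 120 days, 44995822 to 77432154 in the magnum at 300 days and 14499548 to 25071610 in the magnum at 120 days. In the magnum libraries at 300 days 1 read was worth 2.267, 2.372 and 1.952 scaled counts for replicates 1 to 3, so the lowest values there stand for single reads. It was worth 1.167 in replicate 1 of the magnum at 120 days, and for the other 8 libraries the depth could not be read from the values.

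At 300 days most of the genes lay far below the typical well-expressed gene, while at 120 days their medians were near its level in replicates 2 and 3 and below it in replicate 1. At 300 days 7 genes still averaged 1000 scaled counts or more in the uterus, and 6 did in the magnum. The median of the 168 genes in the uterus was 40.5, 28.5 and 27.0 scaled counts in replicates 1 to 3 at 300 days, against 208, 846 and 596 at 120 days. In the magnum it was 30.0, 21.0 and 25.0 at 300 days, against 272, 684 and 631 at 120 days. By the rule all 3 libraries of 300 days lay below all 3 of 120 days for each of the 168 genes, as they did for 18.9% of all genes tested in the uterus and 20.5% in the magnum. The 300-day medians were closer to each other, with replicate 1 the highest in both segments, while replicate 1 stood well below the others at 120 days in both segments. Per length, the median of the genes' mean FPKM (fragments per kilobase of gene, scaled between libraries, from the second deposited table) was 0.424 in the uterus at 300 days, against 8.05 at 120 days. In the magnum it was 0.393 at 300 days, against 7.21 at 120 days. The 10769 genes had median FPKM values of 8.81 and 8.98 in the uterus and of 10.3 and 9.41 in the magnum, at 300 and at 120 days in turn.

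**Figure D1:**
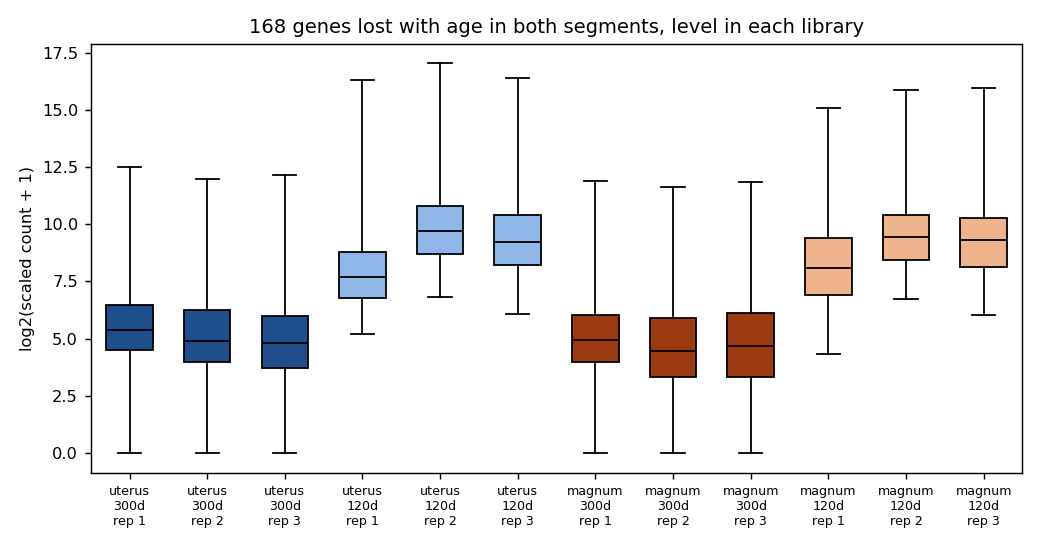
Level of the 168 genes in each of the 12 libraries, as log2(scaled count + 1). Boxes span the quartiles with the median as a line and whiskers reach the lowest and highest gene. The medians of the 300-day libraries lie at 21.0 to 40.5 scaled counts, and in both segments replicate 1 at 120 days lies between these and replicates 2 and 3.

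Few of the genes vanished from the tables altogether. A mean of at least 1 FPKM was held by 48 of the 168 in the uterus at 300 days, against 165 at 120 days, and by 44 in the magnum at 300 days, against 163 at 120 days. At 300 days 18 genes averaged under 10 scaled counts in the uterus and 25 in the magnum. In the magnum at 300 days 1 gene was listed at 0 in every library, and in the uterus at 300 days 0 genes were. Single libraries of 300 days listed 1, 1 and 2 of the 168 at 0 in the uterus and 5, 11 and 2 in the magnum. Each 120-day library listed 0, as the rule demands. Of all 19820 genes and loci, 3884, 3821 and 3865 were at 0 in the uterus at 300 days and 4415, 4685 and 4277 in the magnum.

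As a sum, the 168 genes held 32050 ± 5236 scaled counts in the uterus at 300 days and 455902 ± 194078 at 120 days, and 24682 ± 3970 in the magnum at 300 days and 296725 ± 113609 at 120 days (SD, n = 3 each). As a share of the column total, the uterus had 0.192% ± 0.0327 at 300 days and 3.04% ± 1.19 at 120 days. In the magnum the share was 0.0434% ± 0.0190 at 300 days and 1.88% ± 1.06 at 120 days (SD, n = 3 each). At 300 days the column totals of the magnum were the larger ones, and the summed scaled counts of the genes differed much less between the segments than the shares did. At 120 days sums and shares differed between the segments to a similar degree.

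The size of the loss varied widely among the genes. The log2 change (300 days minus 120 days, of log2(scaled count + 1)) had a median of -3.68 in the uterus, with quartiles of -4.52 and -2.92 and a range of -6.72 to -2.14. In the magnum the median was -4.12, with quartiles of -4.96 and -3.20 and a range of -6.93 to -2.15. Changes of -4 or lower, a loss of at least 16-fold on this scale, were seen in 66 genes in the uterus and 91 in the magnum. Among all 14883 genes tested there were 112 and 179 such changes. Over those 14883 genes the median log2 change was 0.02 in the uterus and -0.03 in the magnum. All of these values were used to choose the genes and are a description. For the same reason nothing is read from the number that passed limma's moderated test downward (adjusted p below 0.05), which was 158 of 168 in the uterus, where 7.21% of all genes tested passed downward, and 165 in the magnum, where 13.6% did. The genes just inside the fold cutoff had 6.059- and 6.07-fold losses in the segment with the smaller loss, and those just outside had 5.984- and 5.975-fold. The smaller of the 120-day means was 102.7 scaled counts for the gene just inside the level cutoff, and 95.0 for the nearest gene below it that met the other cutoffs. A smaller loss under 7-fold was held by 34 of the genes, and 32 genes outside had one of at least 5-fold. A further 7 genes passed the level and fold cutoffs but had overlapping libraries.

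Genes with a large loss in one segment tended to have a large loss in the other. Across the 168 genes the log2 changes of uterus and magnum, which share no library, had a Pearson r of 0.604 and a Spearman rho of 0.615. These are a description across genes, which are not independent replicates, and the cutoffs limit the range of both axes. Libraries of the segments with the same number also moved together at 120 days, so the 2 changes may not be independent measurements. The mean log2 levels of the segments correlated at 0.868 at 300 days and at 0.954 at 120 days (Pearson, same 168 genes). The uterus change minus the magnum change had a median of 0.26, quartiles of -0.25 and 0.83 and a range of -2.18 to 3.88. It lay within 1 log2 unit of 0 for 123 genes, was above 1 for 32 and below -1 for 13.

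**Figure D2:**
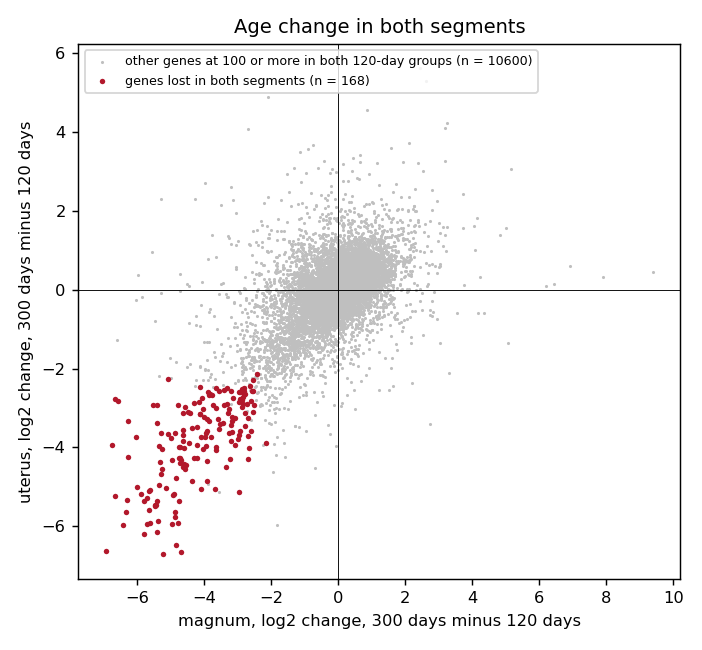
Log2 change with age (300 days minus 120 days) in the magnum on the x axis and in the uterus on the y axis, one point per gene with an average of at least 100 in both 120-day groups. The 168 genes lost in both segments (red) fill the lower left corner by their choice, at medians of -4.12 in the magnum and -3.68 in the uterus.

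The difference between the segments at one age was not itself a cutoff and was tested. The cutoffs did draw on the same 12 libraries, and by asking for a high level at 120 days and a large loss in both segments they limit how far the segments can differ. The shares over all genes tested, which include genes low in one segment, are given as background, and nothing particular to the 168 genes is read from the counts beside them. At 120 days 0 of the 168 genes passed the test between uterus and magnum, where 0.618% of the 14883 genes tested passed, 0.242% higher and 0.376% lower in the uterus (limma's moderated test over all 12 libraries, Benjamini-Hochberg adjustment). The lowest adjusted p was 0.0908. At an unadjusted p below 0.05, 9 genes were higher in the uterus and 1 was lower. The share of all genes tested at that threshold was not taken, so nothing is read from these counts. The median log2 difference, uterus minus magnum, was -0.04, and 156 of the genes lay within 1 log2 unit of 0. All 3 uterus libraries were above all 3 magnum libraries for 7 genes, which is 4.17% against 5.78% of all genes tested. All 3 were below for 0 genes, against 7.49% of all genes tested. With a block for each replicate number within an age, 0 were higher and 1 was lower, where 0.235% and 0.41% of all genes tested were. With FPKM values and a pseudocount of 1, 2 were higher in the uterus and 0 lower, where 0.39% of all genes tested passed. A miss of the threshold does not show that the levels of these genes were equal.

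At 300 days, on what was left of their expression, 10 of the 168 genes were higher in the uterus than the magnum and 3 were lower. Together they are 7.74% of the genes, where 24.1% of all genes tested passed, 12.9% higher and 11.3% lower. The fit takes a single spread per gene from all 4 groups, so the spread among the 120-day libraries enters this test. With only the 2 groups compared, 14 were higher and 6 lower, and the share of all genes tested is not given there. A low share does not show that the segments were alike at 300 days. For the 10 higher genes the log2 difference lay between 0.79 and 3.96, with a median of 2.56. Their group means ran from 8.33 to 235 scaled counts in the uterus at 300 days and from 0 to 69.3 in the magnum at 300 days, so some of these differences rest on a few reads. Listed at 0 in every magnum library of that age was 1 of the 10, whose fitted difference depends on the pseudocount, and the median without it was 2.12. In the same 10 genes the 120-day means ran from 175 to 1747 in the uterus and from 112 to 1472 in the magnum. The 3 lower genes had log2 differences of -2.96 to -1.75, with means of 16.3 to 88.0 in the uterus and 124 to 353 in the magnum at 300 days. Over all 168 genes the median log2 difference was 0.38, with 112 above 0 and 55 below. The median over all genes tested was 0.02. Non-overlapping libraries put 41 genes higher in the uterus, 24.4% against 23.6% of all genes tested, and 14 lower, 8.33% against 20.4%.

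These calls were few and moved with the replicate block, with single libraries and with the scaling. With a block for each replicate number within an age, 31 genes were higher in the uterus and 10 lower, where 17.8% and 14.3% of all genes tested were. The higher count was 4, 3 and 6 when replicate 1, 2 or 3 of the 300-day uterus was left out, and 6 without replicate 2 of the 300-day magnum. The lower count was 1 without replicate 2 or 3 of the uterus at 300 days or without replicate 2 of the magnum at 300 days, and 8 without replicate 1, or 5 without replicate 2, of the uterus at 120 days. Leaving out both replicates 1 of the 120-day groups, which was chosen after seeing the data, gave 24 higher and 9 lower. For left-out libraries the share of all genes tested is not given, so nothing particular to the 168 genes is read from those counts. With FPKM values 1 was higher and 2 lower at a pseudocount of 1, and 4 and 3 at 0.1. Of all genes tested 29.0% and 30.0% passed there, 1709 higher and 2609 lower at 1, and 1811 and 2649 at 0.1. The share of calls that were higher was 76.9% with the scaled counts and 33.3% or 57.1% with FPKM, each on few calls. Over all genes tested the scaled counts gave 1916 higher and 1677 lower, so the calls moved toward lower with FPKM there too. Division by library totals gave 115 higher and 0 lower, where 84.7% of all genes tested passed, 12362 higher and 247 lower. That scaling also moved the median log2 difference of all genes tested to 1.83, and the median of the 168 genes, at 2.08, lay 0.25 above it, against 0.36 above the all-gene median in the deposited scaling.

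**Figure D3:**
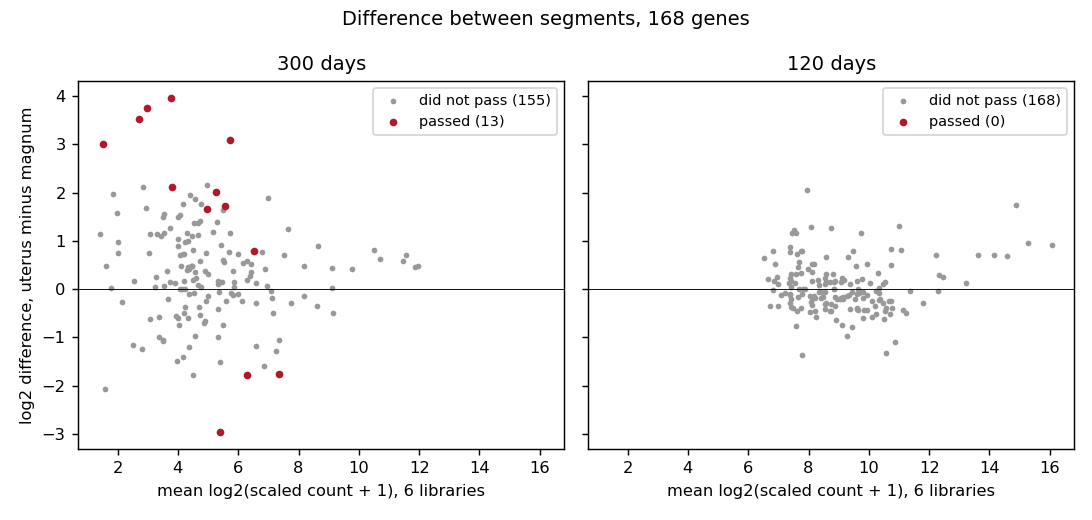
Log2 difference between uterus and magnum (uterus minus magnum) of the 168 genes at 300 days (left) and 120 days (right), against the mean log2(scaled count + 1) of the 6 libraries of that age. Red points passed limma's test, 13 at 300 days and 0 at 120 days. The points at 300 days sit at lower levels and spread more widely around 0.

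The libraries of 120 days were not alike in these genes, and they differed in the same way in both segments. Replicate 1 held the lowest of the 3 values for 155 of the 168 genes in the uterus and for 161 in the magnum, and for 154 in both. Of the 10769 well-expressed genes, replicate 1 was lowest for 37.3% in the uterus and 38.2% in the magnum, and for 21.1% in both. The median ratio of replicate 1 to the mean of replicates 2 and 3 was 0.253 in the uterus and 0.464 in the magnum, against 0.932 and 1.0 over the 10769 genes. A ratio under 0.5 was found for 145 genes in the uterus (86.3%, against 6.69% of the 10769) and for 102 in the magnum (60.7%, against 8.18%). At 300 days no such deficit was seen in the medians, with ratios of 1.30 in the uterus and 1.19 in the magnum, against 0.972 and 1.02 over the 10769 genes. A ratio under 0.5 was held there by 4 genes in the uterus (2.38%, against 1.31% of the 10769). In the magnum 21 genes held such a ratio (12.5%, against 4.25%), at levels that the rule had kept low. Replicate 1 at 300 days was instead the highest library for 57.7% of the 168 genes in the uterus, against 28.5% of the 10769. In the magnum it was highest for 45.8%, against 35.0%. The cutoffs were applied to these same libraries, while the 10769 genes were chosen by their 120-day level alone. These values therefore describe and do not test.

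Replicate 1 at 120 days, above the 300-day libraries by the rule, thus lay between those and replicates 2 and 3 for most of these genes. On the log2 scale, the median gene in the uterus stood 2.57 above its 300-day mean in replicate 1, while replicates 2 and 3 stood 4.29 above it. In the magnum the medians were 3.47 in replicate 1 and 4.57 in replicates 2 and 3. As a share of the distance from the 300-day mean to replicates 2 and 3, the median was 59.8% in the uterus, with quartiles of 52.6% and 66.1%, and 77.5% in the magnum, with quartiles of 63.1% and 82.8%. The labels give no difference in age, date or treatment between the replicates. At 120 days the column total of magnum replicate 1 was 25071610, against 14499548 and 14557061 in replicates 2 and 3. In the uterus the totals were 14621650, 15468376 and 14543795 for replicates 1 to 3. A link between these totals and the pattern was not tested. In the labels, only the replicate number ties the libraries of the segments together. In the data, libraries of the 2 segments with the same number at 120 days also moved together (correlation of deviations from group means 0.361 to 0.591).

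**Figure D4:**
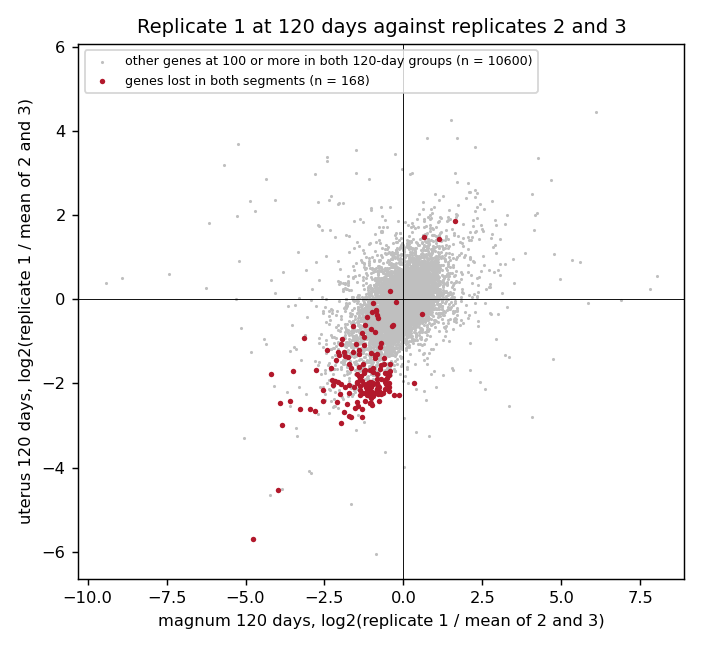
Log2 ratio of replicate 1 to the mean of replicates 2 and 3 at 120 days, in the magnum on the x axis and in the uterus on the y axis, one point per gene. Most of the 168 genes (red) lie at the lower left, with 154 lowest in replicate 1 in both segments, while the other well-expressed genes (grey) centre near 0.

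The pattern over the 6 libraries of 120 days was largely shared. Relative to the mean of its own group, the median gene deviated by -1.26, 0.79 and 0.40 log2 units in replicates 1 to 3 of the uterus, and by -0.74, 0.40 and 0.32 in those of the magnum. The correlation of a gene's 6 deviations with this median pattern was 0.936 for the median gene and at least 0.8 for 135 of the 168 (80.4%). It was 0.0887 for the median of the 10769 genes, of which 14.6% reached 0.8. The pattern was taken from the 168 genes themselves and has 6 points in 2 groups, so these values describe and do not test. The correlation was below 0 for 6 genes (3.57%, against 46.1% of the 10769). In 3 of the 168, replicate 1 was the highest library in both segments. For these 3 the median was 1664, 331 and 866 scaled counts in replicates 1 to 3 of the uterus at 120 days and 1516, 806 and 975 in those of the magnum. At 300 days they stood at 49.0, 58.0 and 87.0 in the uterus and at 172, 194 and 89.0 in the magnum, below the 120-day values as the rule demands of every gene.

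The same count can be set beside that of genes lost in a single segment. The 50 genes that met the cutoffs in the magnum and changed less than 2-fold in the uterus were lowest in replicate 1 for 40.0% in the uterus and 86.0% in the magnum. The 18 genes lost in the uterus and changed less than 2-fold in the magnum were lowest there for 72.2% in the uterus and 44.4% in the magnum. The 168 genes lost in both had 92.3% and 95.8%. Since the cutoffs were applied to these same libraries, the values are given without a test.

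The 120-day values spanned a wide range, and a few genes carried most of the summed scaled counts. Averaged over the uterus and magnum means at 120 days, 11 of the 168 genes held at least 5000 scaled counts, 78 held 500 to 5000 and 79 held less. These 11 genes made up 74.7% of the sum of all 168 in the uterus at 300 days and 73.0% at 120 days, and 69.4% of it in the magnum at 300 days and 60.5% at 120 days. Their sums were 28726, 20480 and 22654 in replicates 1 to 3 of the uterus at 300 days, against 234222, 488361 and 275756 at 120 days. In the magnum they were 16148, 13469 and 21746 at 300 days, against 99251, 230503 and 208897 at 120 days. The groups of the 2 ages were far apart in both segments, as the cutoffs demand, and replicate 2 was highest in both 120-day groups.

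The 3 classes, set after the values were seen, are described side by side without a test. In the 11 genes with the most scaled counts the median log2 change with age was -3.29 in the uterus and -3.28 in the magnum, against -4.03 and -4.55 in the middle class and -3.33 and -4.05 in the lowest. At 120 days 10 of the 11 had a higher mean log2 level in the uterus than in the magnum, with a median difference of 0.70, against -0.15 in the middle class and 0.01 in the lowest. For 4 of the 11 all uterus libraries at 120 days lay above all magnum libraries, as they did for the 5.78% of all genes tested given above, and 0 of the 11 passed the test. Nothing is read from that count, since the class was set after the values were seen. In replicate 1 of the uterus at 120 days the 11 genes had a median ratio to replicates 2 and 3 of 0.570, against 0.243 in the middle class and 0.260 in the lowest. In the magnum the ratios were 0.425, 0.484 and 0.458, close to each other.

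Of the 168 genes, gene11472 held the most scaled counts at 120 days. By scaled counts it ranked 3rd of all numbered genes in the 120-day uterus and 8th in the 120-day magnum. Its values were 5802, 3979 and 4543 scaled counts in replicates 1 to 3 of the uterus at 300 days, against 81632, 125561 and 85146 at 120 days. In the magnum they were 3826, 2687 and 3709 at 300 days, against 34580, 59953 and 62551 at 120 days. The ages did not overlap in either segment, as the rule demands. At 120 days the lowest uterus library lay above the highest magnum library. Per length it stood at 29.1 ± 5.35 FPKM in the uterus at 300 days and 599.5 ± 139 at 120 days, and at 24.2 ± 3.74 in the magnum at 300 days and 338 ± 85.5 at 120 days (SD, n = 3 each). By FPKM it ranked 1916th of the numbered genes in the 300-day uterus, against 101st in the 120-day uterus, and 2786th in the 300-day magnum, against 149th in the 120-day magnum. Among the 168 genes it ranked 3rd by FPKM in the 120-day uterus and 2nd in the 120-day magnum. At 120 days it made up 21.4% of the sum of the 168 genes in the uterus and 17.6% in the magnum. The difference between the segments did not pass in limma's test at either age, with a log2 difference, uterus minus magnum, of 0.49 ± 0.29 at 300 days (SE, adjusted p = 0.252) and 0.92 ± 0.29 at 120 days (SE, adjusted p = 0.267). In scaled counts all 3 uterus libraries were above all 3 magnum libraries at both ages. So were those of 23.6% of all genes tested at 300 days and 5.78% at 120 days. In FPKM the segments overlapped at 300 days, at 34.9, 24.3 and 28.1 in the uterus against 27.7, 20.2 and 24.7 in the magnum. Division by library totals gave a log2 difference of 2.33 at 300 days (adjusted p = 0.000247 in limma's test). With that scaling the median of all genes tested was itself 1.83 and 84.7% of them passed, so nothing particular to this gene is read from it. The adjusted p of the alternatives at 300 days ranged from 0.000247 to 0.541.

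The gene with the largest difference between the segments among those of the 168 that passed was gene17342, at 300 days. Its values were 51, 92 and 32 scaled counts in the uterus at 300 days, against 145, 850 and 144 at 120 days. In the magnum they were 0, 2 and 13 at 300 days, against 19, 589 and 134 at 120 days. All 3 uterus libraries at 300 days lay above the 3 of the magnum, where the value of 2 stands for 1 read. In both 120-day groups replicate 2 was far above the others. The 120-day means, 379.7 in the uterus and 247 in the magnum, lay above replicates 1 and 3 in each segment. That this gene met the level and fold cutoffs thus rests largely on replicate 2. The loss of gene17342 in the uterus did not pass limma's test, at a log2 change of -2.27 ± 1.22 (SE, adjusted p = 0.234). In the magnum the change was -5.07 ± 1.22 (SE, adjusted p = 0.012 in limma's test), and the rule had used both changes. The log2 difference at 300 days, uterus minus magnum, was 3.96 ± 1.22 (SE, adjusted p = 0.0348 in limma's test). At 120 days it was 1.17 ± 1.22 (SE, adjusted p = 0.828), and -0.11 without replicate 1 of the magnum at that age. The call at 300 days was lost with FPKM values at a pseudocount of 1 (adjusted p = 0.536) or 0.1 (0.115), with a pseudocount of 10 on the scaled counts (0.124), and without replicate 1 (0.122) or 2 (0.0947) of the magnum or replicate 1 (0.0845), 2 (0.115) or 3 (0.0582) of the uterus at 300 days. Its alternatives ranged from 0.00164 to 0.536.

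**Figure D5:**
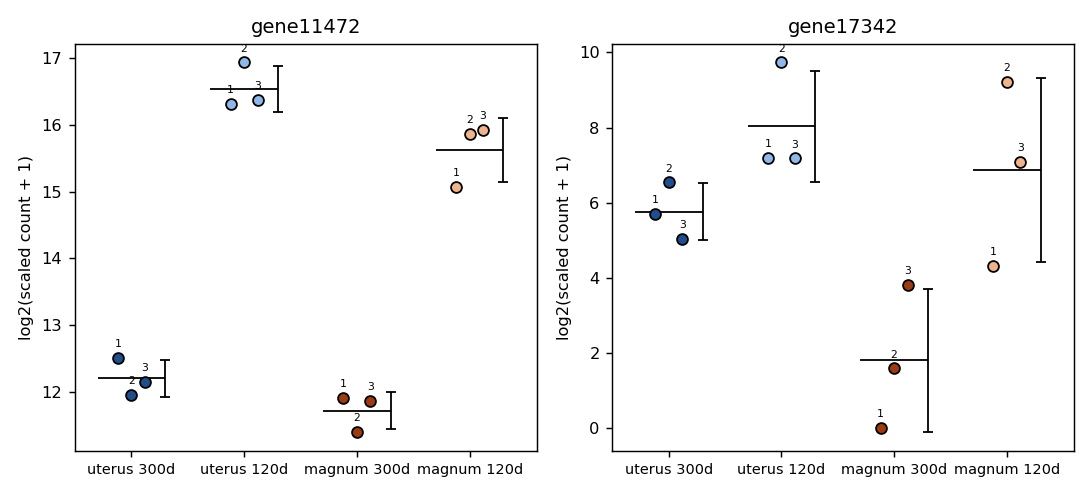
Level of gene11472 (left) and gene17342 (right) in each library, as log2(scaled count + 1), with replicate numbers beside the points. Horizontal lines are group means and bars beside them are the SD of 3 libraries. The ages are separate in both genes, as the rule demands of every gene, and the spread within groups is much wider for gene17342. In both 120-day groups of gene17342, replicate 2 lies far above the others.

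In length the 168 genes spanned much of the range of other genes. Their median length in the deposited table was 3679.5 bases, with quartiles of 2215.25 and 5746.75 and a range of 466 to 19440. The 10769 well-expressed genes had a median of 3895 bases with quartiles of 2276 and 6234. Lengths under 1000 bases were found for 11 of the 168 (6.55%, against 5.93% of the 10769) and lengths of at least 5000 bases for 53 (31.5%, against 36.3%). The 11 genes with the most scaled counts had a median of 6078 bases and a shortest gene of 4218 bases. The median was 3510.5 bases in the middle class and 3550 in the lowest. A longer gene takes more reads at the same number of transcripts, so scaled counts of different genes are not a measure of their relative number of transcripts.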

How the data were processed

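Per the labels' protocols, a Smarter kit for mRNA sequencing turned total RNA into libraries. The submitters' processing notes list Cufflinks 2.0.2, TopHat2 2.0.8, Trimmomatic 0.32, FastQC 0.11.6 and GATK 3.8 without their roles. For build, annotation and counting method, the answer is not given in the sources used here. Reads of near-identical copies or overlapping loci could not be judged.

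The authors' first table was treated as a score per gene (reads scaled to a common level and cut to whole numbers), since size factors by median of ratios were 0.974 to 1.01 in every column. FPKM values are in a second table deposited by the authors. Their scaling between libraries did not follow the column totals. With FPKM values at a pseudocount of 0.1 the median log2 age change in the magnum over all genes tested was 0.03. Division of the scaled counts by library totals gave -1.79. Of all pairs of libraries, 0 were identical.

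Groups were compared with limma 3.58.1 in R 4.3.3 (moderated test, trended prior, two-sided) on log2(scaled count + 1), keeping genes at 10 or more in 3 or more libraries. A single fit held the 12 libraries, with p-values adjusted over its 14883 genes by Benjamini-Hochberg. All 168 genes passed the filter, through the levels that chose them. The fit was also run on simulated data, with independent libraries and differences put only into genes of higher mean level. That run does not vouch for calls near the floor or with paired libraries. Summaries used Python 3.11.15, NumPy 2.4.6, pandas 2.3.3 and matplotlib 3.10.9.

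Uterus and magnum libraries with the same number at 120 days moved together (correlation of deviations from group means 0.361 to 0.591, every pair above 0.1), which is a hint from the data that the numbers pair them, and less so at 300 days (0.084 to 0.216).

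The genes, classes and tests were chosen with earlier results of these data known. By rule, 2 of the 168 genes are named. They are the one with the highest 120-day mean and the one with the largest segment difference that passed with non-overlapping libraries. The latter was taken at 300 days because 0 passed at 120 days.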

Additional observations from a re-analysis of the deposited data

How the results depend on the processing

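The number of genes meeting the cutoffs was 168. It was 262 at a fold of 4 and 299 after division by library totals, which kept all 168, and 127 to 186 when single libraries were left out. The lowest counts, 127 and 138, came without replicate 2 of the uterus and of the magnum at 120 days. The highest, 186 and 182, came without replicate 1 of the same groups in turn. The median log2 age change was -2.23 in the uterus and -2.30 in the magnum with FPKM values at a pseudocount of 1, and -5.78 in the magnum after division by totals. Single libraries left out gave -4.29 to -3.22 in the uterus and -4.57 to -3.90 in the magnum. Replicate 1 of the magnum at 120 days stood at a median log2 ratio of -1.11 to replicates 2 and 3, and at -1.89 after division by totals. At 120 days the count of genes higher in the uterus was 2 with FPKM values at a pseudocount of 1, 1 with a pseudocount of 10, and 0 in the other 20 of 22 alternatives, each library left out included. The lower count was 1 with the replicate block within age and 0 in the other 21. With FPKM values at a pseudocount of 1, 0.39% of all genes tested passed at 120 days. At 300 days the higher count was 1 and 4 with FPKM values at pseudocounts of 1 and 0.1, 3 with a pseudocount of 10, 115 after division by totals, 31 with the replicate block within age, 24 without replicate 1 of both segments at 120 days, and 3 to 14 without single libraries. The lower count was 0 after division by totals, 6 with only the 2 groups compared, 10 with the replicate block within age, 9 without replicate 1 of both segments at 120 days, and 1 to 8 without single libraries. Of all genes tested, 84.7% passed at 300 days after division by totals. With FPKM values at pseudocounts of 1 and 0.1, 29.0% and 30.0% did. The share of all genes tested is not given for left-out libraries, a pseudocount of 10, only the 2 groups compared or the block over all libraries. Nothing particular to the 168 genes is read from those counts. At 300 days 3 of 3 uterus libraries correlated best with their own number in the magnum, and the block over all 12 libraries gave 11 higher and 3 lower. The log2 difference of gene17342 at 120 days was -0.11 without magnum replicate 1 and 2.33 without replicate 2. The cause of these shifts was not tested. The unknown depth of 8 libraries limits how far values under about 10 scaled counts can be read.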
